A study of Mus musculus with 20 samples.

Results

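The genes of the 4 Hox clusters were followed across 5 organs of the mouse. Members were all rows of the count table whose symbol is Hox followed by a cluster letter from a to d and a paralog number, which gave 39 genes of 55401 in the table and left out antisense transcripts and microRNAs. RNA of small intestine, liver, spleen, kidney and heart was sequenced from wild-type (WT) and Nsun6-KO mice of the C57BL/6J background, all females of 8 weeks, with 2 libraries per organ and genotype and 20 libraries in all. Nsun6 codes for an RNA methyltransferase, and the KO allele was made with CRISPR-Cas9 as a deletion of exons 3 and 4 in the germ line, so every cell type of a KO organ carries it. No library was treated. The study calls the libraries of a group biological replicates, and whether the organs came from the same mice was not stated in the sources used here.

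Hox genes code for homeodomain transcription factors that give cells their position along the head-to-tail axis of the embryo. Members of a cluster lie in the order of their paralog number, and in the embryo low numbers are used from the hindbrain on and high numbers only towards the tail. Members with the same number in different clusters are paralogs that arose by duplication of 1 ancestral cluster. Adult organs keep part of this code in their resident cells, and Hox proteins bind DNA together with cofactors of the TALE class such as Meis proteins.

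In GRCm38, cluster a lies on chromosome 6 from 52155590 to 52260880 with 11 members on the minus strand. Cluster b lies on chromosome 11 from 96194316 to 96368256 with 10 members. Cluster c lies on chromosome 15 from 102921103 to 103036852 with 9 members, and cluster d on chromosome 2 from 74668310 to 74765142 with 9 members, all 3 on the plus strand. A further 46 annotated genes, mostly antisense and other noncoding transcripts, lie within the same bounds.

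The homeobox, the 180 bases that code for the DNA-binding domain, was read from the GENCODE vM21 transcripts of all 39 members. Over these bases, paralogs in different clusters were identical at a median of 80.6% of positions (42 pairs, 67.2% to 93.9%) and adjacent members of a cluster at a median of 68.3% (35 pairs, 56.1% to 88.9%). The last 60 bases of the homeobox, which code for the end of the domain with its recognition helix, are shown for Hoxb9, its paralog Hoxc9 and its neighbour Hoxb8, since Hoxb8 and Hoxb9 carry the intestinal pattern described further on. Capitals mark bases that differ from Hoxb9, at 7 positions in Hoxc9 and 14 in Hoxb8.
Hoxb9: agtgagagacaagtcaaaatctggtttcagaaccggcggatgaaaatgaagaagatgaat
Hoxc9: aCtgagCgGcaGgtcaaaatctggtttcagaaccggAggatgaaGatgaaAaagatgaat
Hoxb8: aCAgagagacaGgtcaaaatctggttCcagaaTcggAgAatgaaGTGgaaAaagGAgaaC
The longest identical stretch between the longest transcripts of 2 members was 52 bases (Hoxa6 and Hoxb4). Bases shared with the exons of a neighbouring gene were more frequent and made up 62.8% of the exon length of Hoxd3, 52.9% of Hoxb3, 52.3% of Hoxd4 and 35.0% of Hoxa11, and the values of these 4 genes are therefore uncertain.

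Libraries held between 15897446 and 44508197 counted reads (median 28513950). Each organ carried its own markers: the summed level of 6 kidney markers was 6170 to 8860 CPM (counts scaled to a common library size of 1e+06) in kidney and at most 13 CPM elsewhere, and that of 8 small intestine markers was 13100 to 25100 CPM in the small intestine and at most 276 CPM elsewhere. The 6 liver markers summed to 176000 to 359000 CPM in liver, and outside it were highest in small intestine at 7400 to 20700 CPM, led by Apoa1, an apolipoprotein that the intestine also makes. None of the marker genes of an organ was at 0 in its own libraries. Several libraries also carried transcripts of another organ or cell type. In small intestine KO replicate 1 the 6 heart markers summed to 344 CPM, against 7, 18.7 and 27.4 CPM in the other intestinal libraries. In spleen WT replicate 2 the 6 liver markers summed to 3230 CPM, against 10, 119 and 167 CPM. Small intestine WT replicate 1 held 264 CPM of the 6 spleen markers, which are genes of lymphocytes and red pulp macrophages. Kidney WT replicate 2 stood apart in many genes and is described below. The part of these transcripts in the Hox values was not tested.

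Nsun6 itself could not check the genotype labels, because counts were given per gene and cover exons outside the deletion. Its level was 5.44 and 5.83 CPM in kidney WT against 3.91 and 3.32 CPM in kidney KO, and 7.02 and 6.65 CPM in heart WT against 6 and 5.5 CPM in heart KO. Liver had 4.83 to 7.23 CPM in WT and 4.03 to 4.56 CPM in KO. In small intestine and spleen the genotypes overlapped.

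The mean Hox level was far higher in kidney than in any other organ. Levels of different genes were compared per length, as CPM after trimmed mean of M-values (TMM) scaling divided by the exon length in kb. Summed over the 39 genes, the level was 218 ± 47.8 CPM per kb in kidney, 51.6 ± 55.6 in small intestine, 6.82 ± 1.24 in spleen, 2.60 ± 0.745 in liver and 2.37 ± 0.649 in heart (mean ± SD, n = 4 libraries each, both genotypes together). The SD of the small intestine exceeded its mean, since 2 of its libraries were high and 2 were low. The highest small intestine library had 117 CPM per kb, against 151 in the lowest kidney library. Without kidney WT replicate 2 the kidney sum was 241 ± 18.8 (n = 3). In these bulk samples fewer cells of a type and less RNA per cell cannot be told apart.

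With a mean of at least 1 CPM per kb called detected, 25 of the 39 members were detected in kidney, 9 in small intestine, 2 in spleen, 1 in liver and 0 in heart. At this threshold each detected set had its own range of paralog numbers. The ranges depend on the threshold, since in spleen Hoxa5 had a mean of 1.05 and Hoxb7 of 0.761 CPM per kb. Kidney used numbers 2 to 11, small intestine 4 to 9, and spleen 4 and 5, while liver kept Hoxb4 alone and had 0 detected members without liver WT replicate 1. The intestinal libraries numbered 1 had 8 and 11 members at 1 CPM per kb or more, and those numbered 2 had 0 and 2 (Hoxa5 and Hoxb4). In kidney the number 11 rests on Hoxa11, whose mean without kidney WT replicate 2 was 0.754 CPM per kb, so the range then ended at 10. Members numbered 12 and 13 were not detected in any organ, and Hoxc12, Hoxc13, Hoxd12 and Hoxd13 had no read in any of the 20 libraries.

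**Figure D1:**
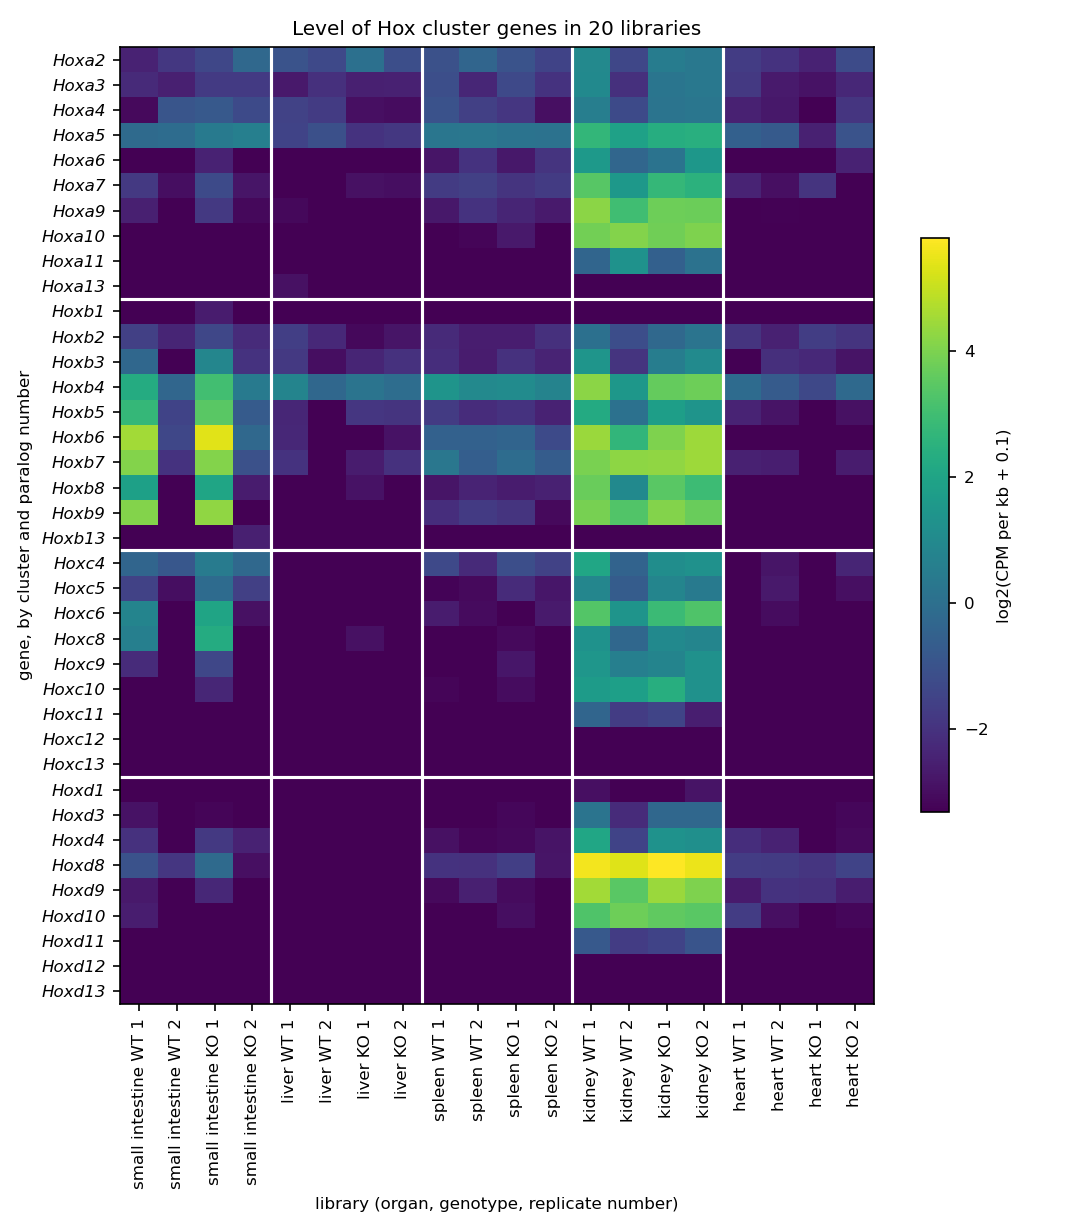
Level of 38 of the genes (rows, ordered by cluster and paralog number) in each of the 20 libraries (columns), as log2(CPM per kb + 0.1) on the colour scale. The kidney columns are bright for most genes from paralog 4 to paralog 10, with fewer bright rows in kidney WT replicate 2. Small intestine replicates numbered 1 are bright from Hoxb4 to Hoxb9, and the rows of paralogs 12 and 13 stay dark throughout.

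The weight of the clusters differed as well. In kidney, cluster d held 37.1% of the summed level, cluster b 33.1%, cluster a 21.6% and cluster c 8.2% (means of 4 libraries). In liver, cluster d had no read in any of the 4 libraries, and clusters a and b held 43.1% and 56.5%. In spleen, cluster b held 55.9% and cluster a 35.9%. Small intestine had no common pattern: cluster b held 92.2% and 87.3% in WT and KO replicate 1, but 40.4% and 45.3% in WT and KO replicate 2, where cluster a held 42.2% and 39.3%.

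Of the 39 members, 31 were abundant enough to be tested over all libraries, and 8 were not (Hoxa13, Hoxb1, Hoxb13, Hoxc12, Hoxc13, Hoxd1, Hoxd12 and Hoxd13). A gene could enter the fit through its kidney libraries alone, and such a gene had to differ between organs. In edgeR's quasi-likelihood F test over the organs, all 31 had a Benjamini-Hochberg adjusted p under 0.1, beside 91.7% of the 23159 genes tested, so this count says little about Hox genes. Outside small intestine, the Hox profile grouped most libraries by organ. For 19 of 20 libraries the nearest library by Pearson r over the 39 genes was of the same organ, and for heart KO replicate 2 it was liver WT replicate 2 (r = 0.858). The median r between libraries of one organ was 0.957 in kidney, 0.925 in spleen, 0.866 in liver and 0.813 in heart, but 0.555 in small intestine. Each small intestine library was nearest to the one of the same number (r = 0.974 and 0.905), and r between numbers was 0.458 to 0.577. Between small intestine and spleen libraries the median r was 0.719.

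Neighbours in a cluster had the highest correlations. Over the 20 libraries, log2 levels of adjacent members correlated with a median r of 0.953 (26 pairs of the 30 members with at least 100 reads), those of paralogs with 0.856 (30 pairs) and those of the other 379 pairs with 0.800. These values are a description, as the pairs share libraries and organs. They stand beside a homeobox that was more similar between paralogs than between neighbours.

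Kidney carried the broadest code. The highest member was Hoxd8, with 49.3 and 39.9 CPM per kb in WT and 54.8 and 45.5 in KO. Hoxd8 is a central member of its cluster, and its 4 kidney values lay far above the highest value in any other organ, 0.793 in small intestine KO replicate 1. After it came Hoxb7 at 18.7 ± 2.56, Hoxd9 at 17.7, Hoxb6 at 16.1, Hoxa10 at 15.3 ± 1.5, Hoxb9 at 13.6 and Hoxa9 at 13.2 CPM per kb (means, n = 4). Without kidney WT replicate 2 the order changed to Hoxd9 at 20, Hoxb6 at 19.5, Hoxb7 at 18.7, Hoxa9 and Hoxb9 at 14.9, Hoxb4 at 14.8 and Hoxa10 at 14.7 (n = 3), with Hoxd8 still highest at 49.9. Hoxb7 is known for its use in the ureteric bud and collecting duct, and its kidney values of 15.3, 18.7, 19.3 and 21.5 CPM per kb varied little.

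Among the posterior members of kidney, levels fell from paralog 10 to paralog 11. Hoxa10 had 14.2 and 17.1 CPM per kb in WT and 14 and 16 in KO, and Hoxd10 had 9.58, 13.5, 11.7 and 10.8 in the same order. Hoxa11, Hoxc11 and Hoxd11, paralogs that pattern the embryonic kidney, had means of 1.16, 0.305 and 0.341 CPM per kb. Hoxa11 was highest in WT replicate 2 at 2.39, against 0.680, 0.600 and 0.982 in the other kidney libraries. Members numbered 2 to 5 ranged widely. Hoxb4 had a mean of 11.8 CPM per kb, Hoxa5 of 5.07, Hoxb5 of 2.86, Hoxc4 of 2.29, Hoxd4 of 2.24 and Hoxb3 of 1.51, whereas Hoxa4 had 0.954, Hoxb2 0.760 and Hoxd3 0.647, and Hoxb1 had no read in kidney.

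**Figure D2:**
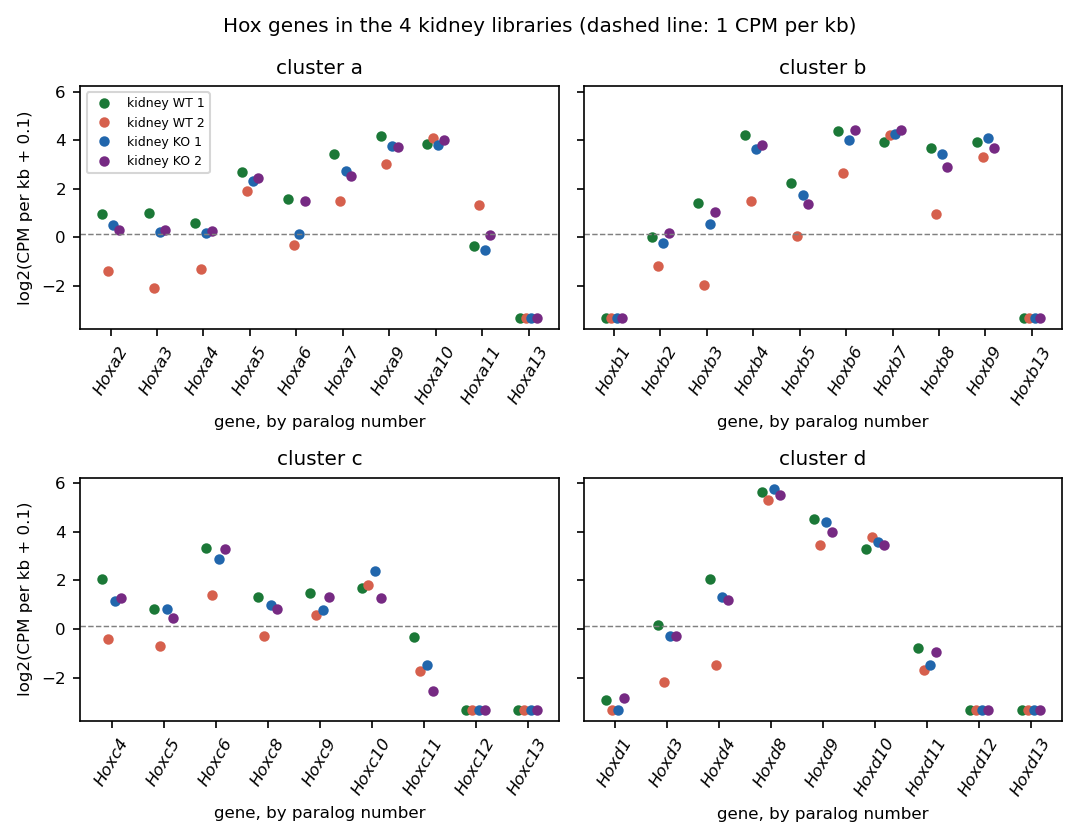
Level of the same genes in the 4 kidney libraries (colours), as log2(CPM per kb + 0.1) against the gene in order of paralog number, 1 panel per cluster, with 1 CPM per kb as a dashed line. Hoxd8 is the highest, no gene beyond paralog 11 has a level in kidney, and kidney WT replicate 2 lies below the other libraries for most members up to paralog 9.

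All 31 tested members were higher in kidney than in the mean of the other organs (edgeR, adjusted p under 0.1 and fold over 2, the call rule used throughout), against 20% of all genes tested that were higher there. As these genes could enter the fit through kidney alone, the count is given without a reading and no p-values are given. The fitted folds were largest for Hoxa10, Hoxd10, Hoxa9 and Hoxd9. Since the other organs were near or at 0, the kidney mean was set against the next organ instead. Hoxa10 had 50.1 ± 4.92 CPM in kidney and 0.0520 ± 0.0875 CPM in spleen, a ratio of 963. That ratio rests on 9 spleen reads, 8 of them in KO replicate 1, and was 5760 without that library. For Hoxd10 and Hoxd9 the next organ was heart, with ratios of 182 and 169. That of Hoxd10 rests on 9 heart reads, 6 of them in WT replicate 1, and was 787 without that library. For Hoxa9 the next organ was spleen, with a ratio of 149. Hoxa11 had no read in the 4 small intestine libraries and was at least 98.8-fold higher in kidney, counted against a floor of 3 reads over the group, or at least 64.1-fold without kidney WT replicate 2.

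Between kidney and small intestine, the next organ in the order, 23 of 31 members were lower in small intestine, beside 22.8% of all genes. This count too is given without a reading, since members such as Hoxa10 and Hoxa11, with no read in small intestine, could enter the fit through kidney alone. The other 8 were not called: Hoxa4, Hoxb3, Hoxb5, Hoxb6, Hoxb7, Hoxb8, Hoxb9 and Hoxc8. For Hoxb6 the means were 16.1 CPM per kb in kidney and 16.3 in small intestine, and the log2 difference had a standard error of 1.01, which is a wide interval around no difference. Leaving out kidney WT replicate 2, 24 members were lower in small intestine and all 31 remained higher in kidney than in the mean of the other organs.

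Kidney WT replicate 2 differed from the other kidney libraries along the axis of the clusters. Hoxb4 had 2.69 CPM per kb there and 18.3, 12.4 and 13.7 in WT replicate 1, KO replicate 1 and KO replicate 2. Hoxb8 had 1.88 against 12.9, 10.7 and 7.39 in the same order. Of the 30 members with a kidney mean of at least 1 CPM, 24 were below all 3 other libraries in this one, 3 were above all of them and 3 lay between. Over all 14649 genes of that level, 38.1% were below all 3 others, and the median log2 ratio was 0.05 against -1.44 for the 30 members.

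The ratio varied with the paralog number. Members numbered 1 to 5 had a median log2 ratio of -2.07 (12 of 13 below all others), members 6 to 9 of -1.16 (11 of 12) and members 10 and 11 of 0.22 (1 of 5). Hoxb3, the lowest, had a ratio of -3.47 and Hoxa11, the highest, of 1.61. Over the 30 members the ratio correlated with the paralog number (Spearman rho = 0.67), a description of genes that share 1 library. Base composition moved with this library too. The decile of genes with the highest GC content had a median log2 ratio of -1.38 in it, and the lowest decile of 0.47, a difference of -1.85 against -0.54 to 0.64 in the other 19 libraries. Over all genes the ratio correlated with GC content in this library (Spearman rho = -0.504), and over the 30 members with rho = -0.34. The members had a median GC content of 53.3% against 49.3% for all genes, and 2 of the 30 lay in the highest decile.

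Other genes, chosen here after their values were seen, stood apart in the same library. Over all genes with a kidney mean of at least 1 CPM, 38.1% were below all 3 other libraries. Of 9 Trithorax and demethylase genes, which hold Hox genes active, 6 were below all 3 other libraries and 2 above them. Among the 6, Kmt2b had 3.89 CPM against 60.9, 33.3 and 26.3, Kdm6b had 1.57 against 35.0, 15.6 and 14.3, and Dot1l had 5.71 against 80.9, 43.8 and 37.8. The summed level of 6 fibroblast markers was 472 CPM against 154, 192 and 278, that of 5 endothelial markers 451 against 181, 264 and 414, and that of 6 markers of collecting duct and urothelium 155 against 236, 336 and 232. Slc34a1, the phosphate transporter of the proximal tubule, had 518 CPM against 4200, 2740 and 1520. The part of cell makeup, RNA quality and base composition in the low Hox values was not tested.

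**Figure D3:**
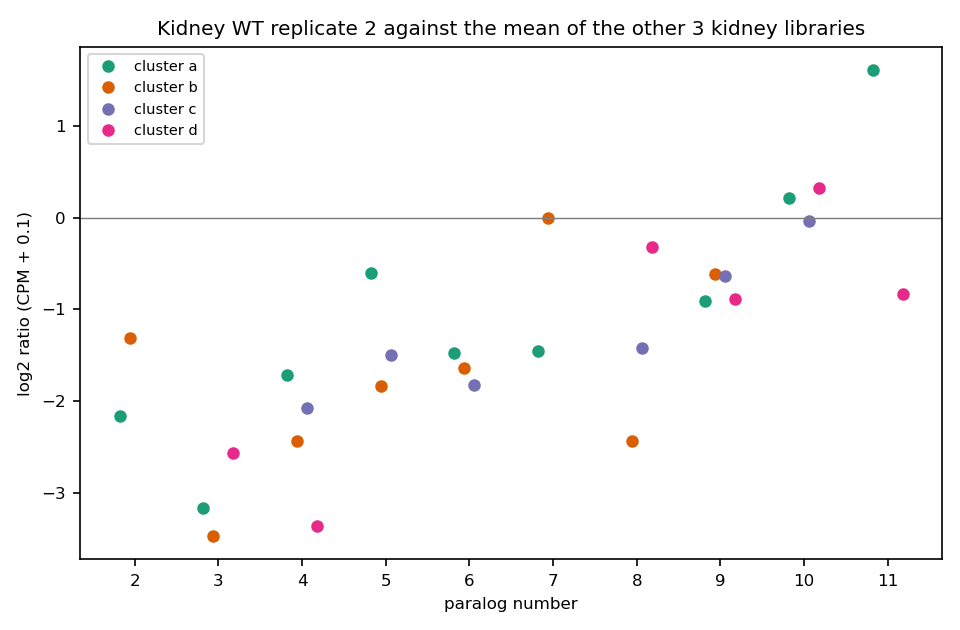
Log2 ratio of kidney WT replicate 2 to the mean of the other 3 kidney libraries (CPM + 0.1 on both sides) against the paralog number, 1 point per gene and 1 colour per cluster, for 29 of the 30 genes with a kidney mean of at least 1 CPM. Points rise from Hoxb3 at -3.47 to a median of 0.22 for paralogs 10 and 11, and 0 marks equal levels.

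In small intestine the 2 libraries numbered 1 had a strong Hoxb code and the 2 numbered 2 did not. Hoxb9 had 16.9 CPM per kb in WT replicate 1 and 19.2 in KO replicate 1, and no read in WT replicate 2 or KO replicate 2. Hoxb6 had 23 and 41.1 in the libraries numbered 1, and 0.283 and 0.735 in those numbered 2. Hoxb7 had 16.9 and 16.8 against 0.154 and 0.374, and Hoxb5 6.55 and 10.9 against 0.256 and 0.518. The groups did not overlap for any of these 4 genes. The labels number the libraries and give no segment of the intestine.

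Members of the other clusters split in part. Hoxc8 had 1.44 and 4.7 CPM per kb in the libraries numbered 1 and no read in the others, and Hoxc6 had 1.64 and 3.84 against 0 and 0.0342, while Hoxc4 had 0.679 and 1.27 against 0.448 and 0.739 and overlapped. In cluster a, Hoxa7 had 0.182 and 0.315 against 0.0276 and 0.043, and Hoxa9 0.0729 and 0.188 against 0 and 0.0148, both without overlap at a low level. Hoxa2, Hoxa3, Hoxa4 and Hoxa5 overlapped. Hoxa5, a member used in gut and lung mesenchyme, had 0.789 and 1.24 against 0.824 and 1.43. Summed over cluster a, the libraries numbered 1 had 1.28 and 2.78 CPM per kb and those numbered 2 had 1.56 and 2.84, a sum held mostly by Hoxa5 and Hoxa2, whereas cluster b had 72.5 and 102 against 1.5 and 3.27. No member beyond paralog 9 reached 1 CPM per kb in any intestinal library.

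Library number 2 was tested against 1 with the genotype as a covariate in a fit of the 4 intestinal libraries. Of the 20 members tested, 8 were lower in the libraries numbered 2, beside 3.11% of 17680 genes: Hoxb4, Hoxb5, Hoxb6, Hoxb7, Hoxb8, Hoxb9, Hoxc6 and Hoxc8. Of these, Hoxb9 and Hoxc8 with 0 reads, Hoxc6 with 2, Hoxb8 with 4 and Hoxb7 with 20 in the libraries numbered 2 could enter the fit only through those numbered 1 and had to differ. With at least 10 counts required in every library, 3 of 6 members tested were lower (Hoxb4, Hoxb5 and Hoxb6), beside 4.02% of all genes tested, and Hoxa3, Hoxa5 and Hoxc4 were not called. None was higher by edgeR, and 12 of the 20 had an unadjusted p under 0.05. The log2 difference was -2.69 (SE 0.362, adjusted p = 0.0446) for Hoxb4, -4.5 (SE 0.36, adjusted p = 0.0198) for Hoxb5 and -6.02 (SE 0.307, adjusted p = 0.0108) for Hoxb6 by edgeR. For Hoxb7, Hoxb8 and Hoxc6 it was -6.03, -7 and -7.29, given without a p-value because these genes had to differ. Hoxb9 and Hoxc8 were at 0 in both libraries numbered 2. Their means in the other 2 were at least 766-fold and 143-fold higher, also given without a p-value. The member with the smallest p in the other direction was Hoxa2, with a log2 difference of 1.28 (adjusted p = 0.438). Without WT replicate 2 the genotype term could not be fitted, the spread came from the libraries numbered 1 and the lone library numbered 2 was assumed to vary like them. In that fit 5 of 21 members were lower, beside 0.742% of all genes, and Hoxb4, Hoxc6 and Hoxc8 were no longer called.

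Markers of intestinal position split the same libraries. Fabp6, the bile acid binding protein of the ileum, had 6810 and 6260 CPM in the libraries numbered 1 and 0.238 and 0.412 in those numbered 2. Pdx1, the ParaHox factor of duodenum and pancreas, had no read in the libraries numbered 1 and 93.3 and 65.1 CPM in the others. Of the 6 distal markers, all 6 were lower in the libraries numbered 2, and of the 8 proximal markers 7 were higher (edgeR), beside 3.11% of all genes lower and 4.52% higher. Several of these genes, such as Pdx1 and Fabp6, could enter the fit only through the libraries in which they were high and had to differ. The intestinal caudal factors Cdx1 and Cdx2 were present in all 4 libraries. Cdx2 had 123 and 165 CPM in the libraries numbered 1 and 68.9 and 71.0 CPM in those numbered 2, a log2 difference of -1 (SE 0.195, adjusted p = 0.0866 by edgeR), and Cdx1 differed by -1.16 (adjusted p = 0.0587).

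Markers of other cell types differed between these libraries as well. The summed level of 6 fibroblast markers was 276 and 431 CPM in the libraries numbered 1 and 166 and 280 CPM in those numbered 2 (WT and KO), higher in number 1 within each genotype. That of the smooth muscle markers was 284 and 2450 CPM against 448 and 1370, and that of the spleen markers 264 and 2.57 CPM against 16.8 and 45.9. Their part in the Hox values was not tested.

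**Figure D4:**
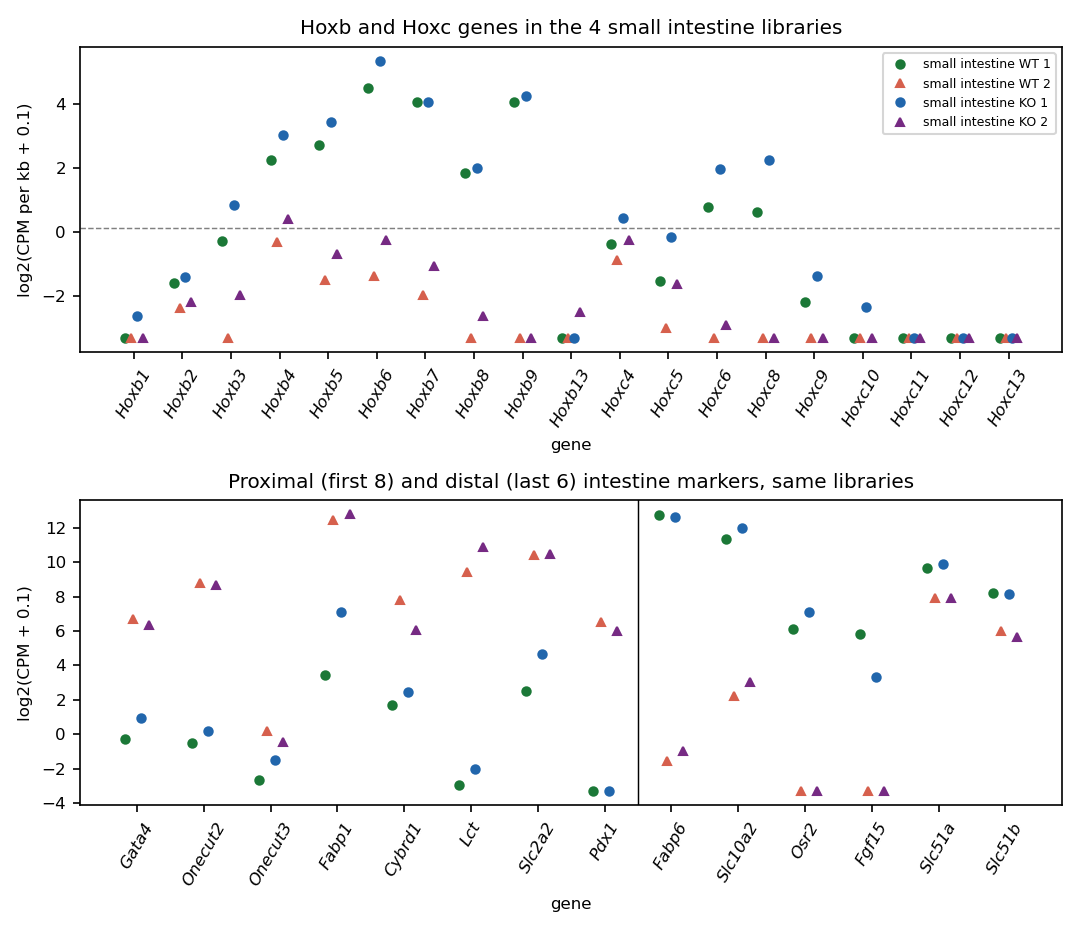
Hoxb and Hoxc genes (top, log2(CPM per kb + 0.1), dashed line at 1 CPM per kb) and proximal and distal intestine markers (bottom, log2(CPM + 0.1)) in the 4 small intestine libraries. Circles are libraries numbered 1 and triangles those numbered 2; circles lie above triangles from Hoxb4 to Hoxb9 and for the 6 distal markers, and below them for the 8 proximal markers, of which 7 passed the test.

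The promoter of Hoxb8 is shown because the gene was called in this comparison and its promoter was in the RefSeq table of GRCm38.p6, which held 24 promoters of 22 members. The region is chr11:96281655-96281954 on the plus strand, from 250 bases before to 50 bases after the start of the gene. Capitals mark TTTATG and its reverse complement CATAAA, letters found in sites of Cdx factors. They begin 157 and 143 bases before the start.
Hoxb8 promoter: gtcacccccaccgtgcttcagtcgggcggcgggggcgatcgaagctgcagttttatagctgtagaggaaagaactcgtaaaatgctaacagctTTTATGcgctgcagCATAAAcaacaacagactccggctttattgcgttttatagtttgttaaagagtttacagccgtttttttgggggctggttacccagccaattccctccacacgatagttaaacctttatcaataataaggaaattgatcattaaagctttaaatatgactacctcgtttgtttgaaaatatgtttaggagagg
On either strand, 11.9% of all 32851 promoters of this length held TTTATG, and 5 of the 24 member promoters did (Hoxa7, Hoxb8, Hoxd3, Hoxd4 and Hoxd11). Those of Hoxb4 and Hoxd8 did not. A match is a description of the letters and not a site.

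Against the mean of the other organs, 11 of 31 members were higher in small intestine beside 25.1% of all genes. Fewer members were higher with a replicate block within organ, as given further below. Members could enter the fit through kidney or through the intestinal libraries numbered 1. The count of 11 is therefore given without a reading, and no p-values are given. The fitted folds were largest for Hoxb9, Hoxb6, Hoxc8 and Hoxb8 (edgeR). In each of them the high values were those of the 2 libraries numbered 1. In both libraries numbered 1, Hoxb5, Hoxb6 and Hoxb9 exceeded every kidney library, whose highest values were 4.66, 21.5 and 16.8 CPM per kb, although Hoxb9 did so by a narrow margin.

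Spleen kept a weak code led by Hoxb4, a gene known for its role in blood stem and progenitor cells. Hoxb4 had 2.51 and 1.86 CPM per kb in WT and 2.01 and 1.59 in KO. Hoxa5 had 1.10, 1.13, 1.01 and 0.978 in the same order, and Hoxb7 1.13, 0.558, 0.825 and 0.533. These were the only members that reached 1 CPM per kb in a spleen library. Of 31 members, 1 was higher in spleen than in the mean of the other organs beside 25% of all genes, and 2 were lower beside 19.8%. Hoxc4 was higher by 1.26 on the log2 scale (SE 0.567, adjusted p = 0.0713, edgeR), although its mean CPM was higher in kidney and small intestine, because the other organs include liver at 0. Hoxb5 (log2 difference -1.78, adjusted p = 0.0782) and Hoxb2 (-1.13, adjusted p = 0.0713) were lower. None of these 3 passed at an adjusted p under 0.05. Compared with small intestine, 13 members were higher in small intestine than in spleen, beside 24.9% of all genes. These were Hoxb3, Hoxb5 to Hoxb9, Hoxc4, Hoxc5, Hoxc6, Hoxc8, Hoxc9, Hoxd4 and Hoxd8, none of them in cluster a. Hoxc8 with 2 spleen reads, Hoxc9 with 5 and Hoxc6 with 16 could enter the fit only through other organs. Hoxb9, Hoxc8 and Hoxc9 had no read in the intestinal libraries numbered 2. This count is therefore given without a reading.

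Liver had Hoxb4 and a little Hoxa2. Hoxb4 had 1.63 and 0.723 CPM per kb in WT and 1.02 and 0.846 in KO, and Hoxa2, a hindbrain member, had 0.401, 0.299, 0.929 and 0.352. In all, 23 of the 39 members had no read in any liver library. Of 31 members, 16 were lower in liver than in the mean of the other organs, beside 22% of all genes. As members could enter the fit through kidney, which is part of that mean, the count is given without a reading. Fewer members were lower with a replicate block within organ, as given further below. Hoxd8, Hoxc4, Hoxc6 and Hoxc5 led them, each with no read in 4 libraries. The mean of the other organs was at least 1010-fold, 66.0-fold, 162-fold and 39.5-fold higher, mostly through kidney. No p-values are given for them, for the same reason. Spleen differed from liver in 12 members, all lower in liver, beside 30.1% of all genes. Members with no read in liver could enter the fit only through other organs, so this count is given without a reading. Hoxa5, which had reads in all libraries of both organs, was among the 12. Its log2 difference was -2.16 (SE 0.430, adjusted p = 0.000284, edgeR).

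Heart had the lowest mean sum, 2.37 ± 0.649 CPM per kb against 2.60 ± 0.745 in liver, but the libraries of these organs overlapped. The lowest heart library had 1.44 CPM per kb. Hoxb4 had 0.799 and 0.514 CPM per kb in WT and 0.292 and 0.757 in KO, and Hoxa5 had 0.596, 0.498, 0.0799 and 0.404. Hoxd8 had 0.204, 0.200, 0.164 and 0.259, and 18 members had no read in any heart library. Hoxb4 was the one member with at least 10 reads in each of the 20 libraries. Of 31 members, 13 were lower in heart than in the mean of the other organs, beside 20.4% of all genes, and without heart KO replicate 1 the number was 8. Kidney is part of that mean too, so this count is likewise not read against the share of all genes. The folds were largest for Hoxb6, Hoxb8, Hoxc8 and Hoxa9, given without p-values for the same reason. Hoxb6, Hoxb8 and Hoxc8 had no read in heart and at least 584-fold, 242-fold and 81.8-fold higher means elsewhere, and Hoxa9 had 1 read in heart. Liver and heart had similar sums. Of 31 members 6 were lower in liver than in heart (Hoxc4, Hoxc5, Hoxd4, Hoxd8, Hoxd9 and Hoxd10), beside 25.3% of all genes. Members with no read in either organ, such as Hoxa10 and Hoxa11, could not be called, so this count is not read either.

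No member was called between Nsun6-KO and WT in any organ. Within organs, edgeR tested 20 members in small intestine, 4 in liver, 16 in spleen, 31 in kidney and 6 in heart and called 0 in each. The same fits called 0% of 17680 genes in small intestine, 0.0509% of 15729 in liver, 0.223% of 18834 in spleen, 0% of 17550 in kidney and 0% of 16632 in heart. No member had an unadjusted p under 0.05 in any organ, and DESeq2 called none. The genotype over all organs gave 0 of 31 members beside 0.00432% of 23159 genes, and the genotype by organ interaction 0 of 31 beside 0%. A difference had to be several times its standard error to be called, so with 2 libraries per group smaller differences could be missed. Over the members tested, standard errors ran from 0.29 (Hoxa10) to 1.16 (Hoxb3) in kidney. In small intestine they ran from 0.528 (Hoxa5) to 3.17 (Hoxb9). Those that follow belong to the members with the smallest p only.

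The members with the smallest p in each direction were Hoxa2 (log2 difference 1.94, SE 0.973) and Hoxb7 (-0.05, SE 2.29) in small intestine, Hoxa2 (0.85, SE 0.717) and Hoxa5 (-0.88, SE 0.782) in liver, and Hoxc4 (0.58, SE 0.601) and Hoxa4 (-1.59, SE 0.869) in spleen. In kidney they were Hoxb7 (0.24, SE 0.319) and Hoxc11 (-1.46, SE 1.02), and in heart Hoxb2 (0.63, SE 0.865) and Hoxa5 (-1.06, SE 0.866). All had an adjusted p of 1 by edgeR. Over all organs they were Hoxc5 (1.13, SE 0.618) and Hoxc11 (-1.09, SE 0.972), and Hoxb2 had the smallest p for the interaction (unadjusted p = 0.128, edgeR).

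The genotype count in kidney was 0 in the fit of all 4 libraries and changed in the run without WT replicate 1. Without kidney WT replicate 1, which leaves WT replicate 2 as the lone WT library, 17 of 31 members were called beside 16.1% of 18244 genes, with the spread taken from the KO pair alone and the lone library assumed to vary like it. Without WT replicate 2 the number was 0 beside 2.37% of 18771 genes. In small intestine 19 of the 20 tested members had a positive log2 difference with a median of 0.774, against 0.004 over all genes. Within the libraries numbered 1, KO exceeded WT in 19 of 20 members with at least 20 reads, with a median ratio of 1.76, and within those numbered 2 in 8 of 9, with a median ratio of 2.02. Each ratio compares 1 library with 1, and neighbours in a cluster varied together. The share of all genes with KO above WT within a number was not computed, so these counts are given without a reading. The smooth muscle markers were also higher in KO within both numbers (2450 against 284 CPM and 1370 against 448 CPM), as were the fibroblast markers. Their part in the Hox values was not tested.

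**Figure D5:**
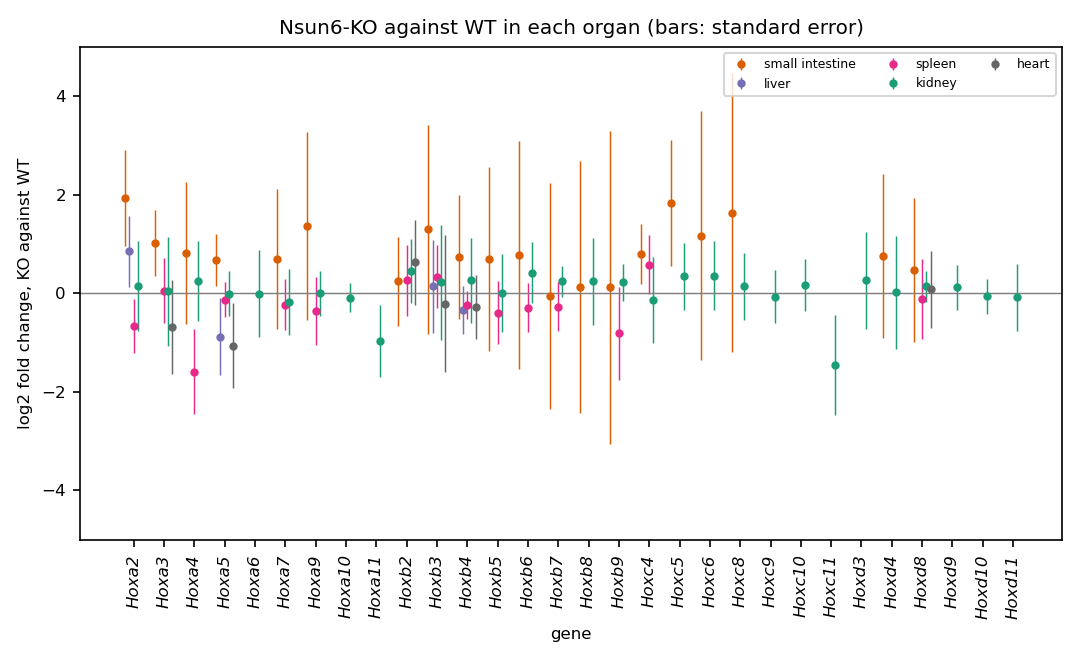
Log2 fold change of Nsun6-KO against WT with its standard error for tested genes in each organ (colours), from edgeR fits of 4 libraries per organ. None of the points passed the call rule, and bars are widest in small intestine, where the libraries numbered 1 and 2 differed.

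Counts over other genes within the clusters followed their Hox neighbours in part. Gm53, which lies between Hoxb13 and Hoxb9 on chromosome 11, had 44.7 and 53.5 CPM in small intestine libraries numbered 1 and no read in those numbered 2, as did Hoxb9. The adjacent microRNA gene Mir196a-1 had 5.84 and 10.3 CPM against 0 and 0. Both could enter the fit only through the libraries numbered 1, so no test is given. These are reads of long RNA over the hairpin and not a measure of the mature microRNA. In kidney WT replicate 2, 38.1% of all genes with a kidney mean of at least 1 CPM were below all 3 other libraries. Of the 12 genes of that level within the clusters that are not members, 7 were below all 3 others and 2 above them. Gm53 had 11 CPM in this library against 66.9, 37.6 and 39. Hoxaas2 had 0.207 CPM against 2.48, 1.76 and 1.82, and Haglr 1.57 against 5.53, 3.20 and 1.82. Hoxb5os had 36.8 CPM there against 24.4, 29.1 and 34.3, and Hoxd3os1 6.50 against 6.77, 5.88 and 6.31. Over 4 libraries Hoxb5os had 31.2 ± 5.51 CPM in kidney and 0.932 ± 0.965 CPM in small intestine. The stored counting command shows no strand option although the methods state one, so reads of a member and of an overlapping antisense gene may not be told apart.

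The microRNAs of the miR-196 and miR-10 families, which lie in the clusters, are shown for their shared seeds and for a match to a member. The mature sequences are from RefSeq (GRCm38.p6), with bases 2 to 8, the seed, in capitals.
miR-196a-5p: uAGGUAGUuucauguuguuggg
miR-196b-5p: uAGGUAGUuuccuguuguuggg
miR-10a-5p: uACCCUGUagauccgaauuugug
miR-10b-5p: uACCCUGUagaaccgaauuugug
In the GENCODE transcripts, that of Hoxb8 held a stretch that pairs with miR-196a-5p at 21 of 22 bases, more than any of the other 38 members (at most 15 of 22). It is printed 5′ to 3′ with the paired bases in capitals.
Hoxb8 site: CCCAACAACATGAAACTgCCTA
Hoxb8 and Mir196a-1 were both present in the intestinal libraries numbered 1 (Hoxb8 with 3.54 and 3.96 CPM per kb) and both near or at 0 in those numbered 2 (Hoxb8 with 0 and 0.0626).

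Partners and regulators of Hox genes were compared in the same fits. None of 9 tested TALE cofactors was called between the small intestine libraries by number (edgeR), and the 1 with an unadjusted p under 0.05 was Meis2, which had 3.49 and 8.74 CPM in those numbered 1 and 67 and 34 CPM in those numbered 2 (log2 difference 3.12, SE 0.672, adjusted p = 0.11). Of 15 Polycomb genes, which keep Hox genes silent, 2 were higher in kidney (Phc1 and Pcgf2) and 1 lower (Cbx8), beside 20% of all genes higher and 12.9% lower there. In small intestine 3 were higher (Ezh2, Pcgf2 and Jarid2) and 1 lower (Cbx7), beside 25.1% and 17.3%. Of 9 Trithorax and demethylase genes, which keep them active, 0 were called in kidney (edgeR; 2 had an unadjusted p under 0.05) and 2 were higher in small intestine (Mllt3 and Kdm6b). Their median log2 difference in kidney was -0.44, against -0.008 for all genes. Kidney WT replicate 2, where 6 of the 9 genes lay below all other kidney libraries, is included in this value.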

How the data were processed

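Poly(A) RNA of 20 libraries was sequenced. According to the study's methods and the file header, the authors trimmed reads with cutadapt, mapped them with HISAT2 2.1.0 (mm10) and counted them with featureCounts 2.0.1, and the deposited values are raw counts per gene with the merged exon length in bases. The stored command lacks the strand and pair options of the methods, and 54.9% to 59.8% of counts from 10 to 50 were even. Total counts were 15897446 to 44508197, and the replicate number limits precision.

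Here counts were tested with edgeR 4.0.16 (R 4.3.3; TMM, filterByExpr, robust quasi-likelihood fits), with DESeq2 1.42.0 as an alternative, and p-values were adjusted by Benjamini-Hochberg over all genes tested. A call required an adjusted p under 0.1 and a fold over 2, and a fold was not required for the organ F test and the interaction. Organs were compared in 1 fit of 20 libraries, genotypes within each organ, and the small intestine by library number. Named were up to 4 called members of largest fold per direction and organ, the member of smallest p per genotype comparison and direction, and called or most abundant genes of each list. Scripts were tested on simulated data. Members and lists were chosen with earlier results of these data known. Results that need a few genes and sequences are not reported here.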

Additional observations from a re-analysis of the deposited data

How the results depend on the processing

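Members higher in kidney were 31 of 31 tested in each run without 1 library, with other size factors, with the replicate block and at an adjusted p under 0.05, 32 of 35 with no filter on low counts and 31 of 35 by DESeq2. With at least 10 counts required in every library, 1 member could be tested over all organs, and it gave 1 difference between organs, 1 higher in kidney, 1 lower in liver and 1 lower in heart, with 0 for the other calls (small intestine higher, spleen higher or lower). In the intestinal comparison by number 3 were then lower. At an adjusted p under 0.05, spleen had 0 higher and 0 lower, and spleen against heart 0 lower. Spleen lower was 0 with no filter on low counts, 1 without the small intestine libraries and 6 by DESeq2, and spleen higher was 3 without the small intestine libraries.

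The same replicate numbers do not mark shared animals in the sources used here, and deviations of same-numbered libraries correlated by 0.612 in small intestine, 0.448 in heart, 0.234 in kidney, 0.059 in liver and 0.02 in spleen. With a replicate block within organ, 6 members were higher in small intestine, 8 lower in liver and 2 higher in spleen. The block added no genotype call, and it turned Hoxb7 in small intestine to 0.4 (log2), where 1 fit of all 20 libraries gave 0.01.

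At 0.5 CPM per kb, 4 members were detected in spleen and 1 in heart, at 2 CPM per kb 5 in small intestine, 0 in liver and 0 in spleen, and on the TPM scale 5 in spleen and 2 in heart.

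Leaving out 1 library at a time gave 9 to 13 members higher in small intestine, 13 to 17 lower in liver, 0 to 2 higher and 0 to 3 lower in spleen, and 8 to 13 lower in heart. Genotype calls in kidney were 0 to 17, and members lower by intestinal number 5 to 8, in fits of 3 libraries with no genotype term. Detected members were 0 to 1 in liver. Without kidney WT replicate 2, an alternative chosen after the data were seen, 1 member was higher in liver than in heart and 1 lower in spleen than in heart. The genotype difference of Hoxb7 in small intestine ran from -4.51 to 5.7 and that of Hoxa2 in liver from -0.02 to 1.41 (log2). The cause of these shifts was not tested.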

Other observations

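Of 14 tested genes of the retinoic acid pathway, which sets Hox expression in the embryo, 3 were higher in kidney than in the mean of the other organs (Crabp2, Rarb and Aldh1a2) and 2 lower (Rxrg and Aldh1a1; edgeR), beside 20% of all genes higher and 12.9% lower. In small intestine, Rdh10, an enzyme of retinaldehyde synthesis, was the 1 gene of 10 tested that was called by library number, and it was higher in the libraries numbered 2, beside 4.52% of all genes.

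Of the 6 genes that flank the clusters, 4 were abundant enough to be tested in the fit of all organs. None was called in kidney by edgeR, and 2 had an unadjusted p under 0.05: Lnpk, with a log2 difference of -0.92 (adjusted p = 0.000259), and Skap2, with 0.81 (adjusted p = 6.57e-05), both short of a fold of 2.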
